A study of Mus musculus with 6 samples.

Results

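Nuclear transport genes, comprising importins, exportins and nucleoporins, were examined by total RNA sequencing in 4T1, a mouse line derived from a mammary carcinoma. Members were taken by symbol, as the Ipo, Kpna, Kpnb, Xpo and numbered Nup genes together with Tnpo1, Tnpo2, Tnpo3, Cse1l, Ndc1, Pom121, Tpr, Ranbp2 and Rae1, and the pseudogene Kpna2-ps was dropped. This gave 50 of the 48587 genes in the table, namely 11 genes of the importin beta family, 6 importin alpha genes, 7 exportins and 26 nucleoporins. The study asked how METTL7A1, a putative methyltransferase found among cytoplasmic translation factors, affects these tumorigenic cells, and the importin Ipo5 was among the proteins it recovered with METTL7A1. Cells stably transfected with full-length Mettl7a1 cDNA in the pBICEP-CMV-2 vector and kept in G418 (METTL7A1) were compared with mock cells of the same line, with 3 libraries in each group. For 4T1 the study describes mock cells as stable transfectants of the empty vector and the METTL7A1 protein as FLAG-tagged, and no source used here says whether either culture was a clone or a pool. The replicates were stated to be biological, but no source used here ties them to separate transfections, so the p values measure the spread between these cultures.

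Proteins above a certain size cross the nuclear envelope through the nuclear pore with the help of soluble receptors. Importins of the beta family bind cargo in the cytoplasm, either directly or through an importin alpha adaptor that reads the classical nuclear localization signal, and release it when Ran-GTP binds them in the nucleus. Exportins bind cargo together with Ran-GTP in the nucleus and release it in the cytoplasm, while nucleoporins build the pore itself as a stack of rings, a central channel lined with phenylalanine-glycine repeats, cytoplasmic filaments and a nuclear basket.

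For 4 of the 5 members that changed most, the 200 bases upstream of the RefSeq start are shown in their 5′ to 3′ direction, since the data below turn on these genes. The sequences are from the RefSeq promoter table of build GRCm38.p6, which held a window for 40 of the 50 members, and no window was listed for Nup43. Capitals mark matches on either strand to the GC box (GGGCGG), the CCAAT box (CCAAT), the E-box (CACGTG), the CRE (TGACGTCA) and the NRF1 core (GCATGCGC). Ipo4 lies at chr14:55635685-55635884 on the minus strand, Ipo5 at chr14:120910994-120911193, Nup93 at chr8:94214364-94214563 and Nup37 at chr10:88146792-88146991, the last 3 on the plus strand.
Ipo4: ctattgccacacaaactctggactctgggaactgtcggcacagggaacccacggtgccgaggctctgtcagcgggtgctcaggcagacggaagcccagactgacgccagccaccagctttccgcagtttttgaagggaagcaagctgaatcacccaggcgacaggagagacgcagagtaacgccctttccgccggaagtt
Ipo5: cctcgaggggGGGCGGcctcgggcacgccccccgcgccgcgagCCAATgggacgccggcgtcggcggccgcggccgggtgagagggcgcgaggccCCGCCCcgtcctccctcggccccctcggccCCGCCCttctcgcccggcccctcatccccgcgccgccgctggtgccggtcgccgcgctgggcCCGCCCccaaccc
Nup93: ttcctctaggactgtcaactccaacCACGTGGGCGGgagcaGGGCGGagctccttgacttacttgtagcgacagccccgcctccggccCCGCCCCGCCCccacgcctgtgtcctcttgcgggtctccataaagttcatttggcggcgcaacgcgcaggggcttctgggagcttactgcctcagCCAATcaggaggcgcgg
Nup37: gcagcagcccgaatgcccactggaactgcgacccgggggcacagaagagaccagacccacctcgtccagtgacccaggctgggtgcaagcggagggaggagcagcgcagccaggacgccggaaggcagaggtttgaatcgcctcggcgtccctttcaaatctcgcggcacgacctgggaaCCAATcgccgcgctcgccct
The Ipo5 stretch held 4 GC boxes and 1 CCAAT box, and that of Nup93 held 4 GC boxes, 1 CCAAT box and 1 E-box, where the E-box shares 1 base with a GC box and another 2 GC boxes share 1 base. Nup37 had 1 CCAAT box. None of the motifs was found in the stretch of Ipo4, the member that fell most, although its full window held an E-box. In the full windows, from 250 bases before to 50 bases after the start, a GC box was present in 26 of the 38 tested members that had a window (68.4%), close to the 67.5% of 8908 tested genes with a window and above the 35.7% of all 32851 windows. A CCAAT box was found in 19 of 38 (50.0%, against 39.1% of tested genes and 37.4% of all windows), an E-box in 8 (21.1%, against 10.6% and 7.15%), the NRF1 core in 4 (10.5%, against 5.83% and 2.71%) and the CRE in 2 (5.26%, against 3.50% and 1.79%). These counts describe letters in the windows and no binding was measured.

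Sequencing gave between 18386780 and 28459338 counts per library, of which the members took 0.844% to 0.992%. The share was 0.858% in mock replicate 1, near the 0.844% to 0.855% of the METTL7A1 libraries and below the 0.959% and 0.992% of the other mock libraries. Levels are therefore given as TMM-scaled cpm, that is, counts divided by library sizes that were corrected by factors of 0.898 to 1.08 that allow for the composition of each library. The labels held, as 6355, 11358 and 10398 reads were assigned to Mettl7a1 in METTL7A1 replicates 1, 2 and 3 and no more than 30 in any mock library. The epithelial markers Krt8, Krt18, Krt19, Epcam and Cdh1 stood at 41.5 to 671 cpm of unscaled depth in every library, whereas Cd3e and Lum had no counts and Ptprc, Adgre1, Dcn, Acta2, Pecam1 and Cdh5 were all under 1 cpm. Of the markers of other cell types, Pdgfra (15.5 to 18.5 cpm in mock and 23.3 to 26.9 in METTL7A1) and Krt14 (33.7 to 39.7 and 9.14 to 10.9) moved with the groups, and their part in the results was not tested.

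Nuclear transport transcripts were mostly lower in METTL7A1 cells, by small amounts. In bulk RNA, a lower level in each cell and fewer cells that express a gene cannot be told apart. Of the 48 members that passed the filter of 1 cpm in at least 3 libraries, 32 were called at an adjusted p under 0.05 (edgeR quasi-likelihood test, Benjamini-Hochberg over 13166 genes), a share of 66.7% beside 42.1% of all genes tested. Only 5 were higher, a share of 10.4% beside 21.1% of all genes, and 27 were lower, a share of 56.3% beside 21.0%. The median log2 fold change was -0.24 over the members and -0.03 over all genes, and 40 of 48 members had a value below 0. The groups did not overlap in any library for 39 of 48 members (81.3%), beside 51.6% of all genes. Among the 9795 genes within the members' range of abundance, 46.2% were called, 22.6% higher and 23.6% lower. No member passed the thresholds of the study (adjusted p under 0.01 and an absolute log2 fold change over 1.5), which 2.48% of all genes did, whereas 35 of 48 members had an unadjusted p under 0.05, beside 50.1% of all genes (24.6% higher and 25.5% lower). DESeq2 and limma voom also put 0 members past those thresholds.

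Kpna7, an importin alpha of oocytes and early embryos, and Nup62cl, a paralog of the channel protein Nup62, had 0 counts in all 6 libraries, which allows up to 0.105 to 0.163 cpm depending on depth. Nup210l, the paralog of the membrane nucleoporin Nup210, was the lowest of the tested members, with 6.68, 4.64 and 4.34 cpm in METTL7A1 replicates 1, 2 and 3 and 7.60, 5.41 and 8.41 cpm in mock replicates 1, 2 and 3. These values overlapped, and the difference of -0.47 on the log2 scale (SE 0.21, edgeR adjusted p = 0.0918) did not pass the test. Nup210l did pass without METTL7A1 replicate 1 (-0.66, adjusted p = 0.0253), without mock replicate 2 (-0.64, adjusted p = 0.0277) and with all libraries when no abundance filter was used (-0.43, adjusted p = 0.0407).

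**Figure D1:**
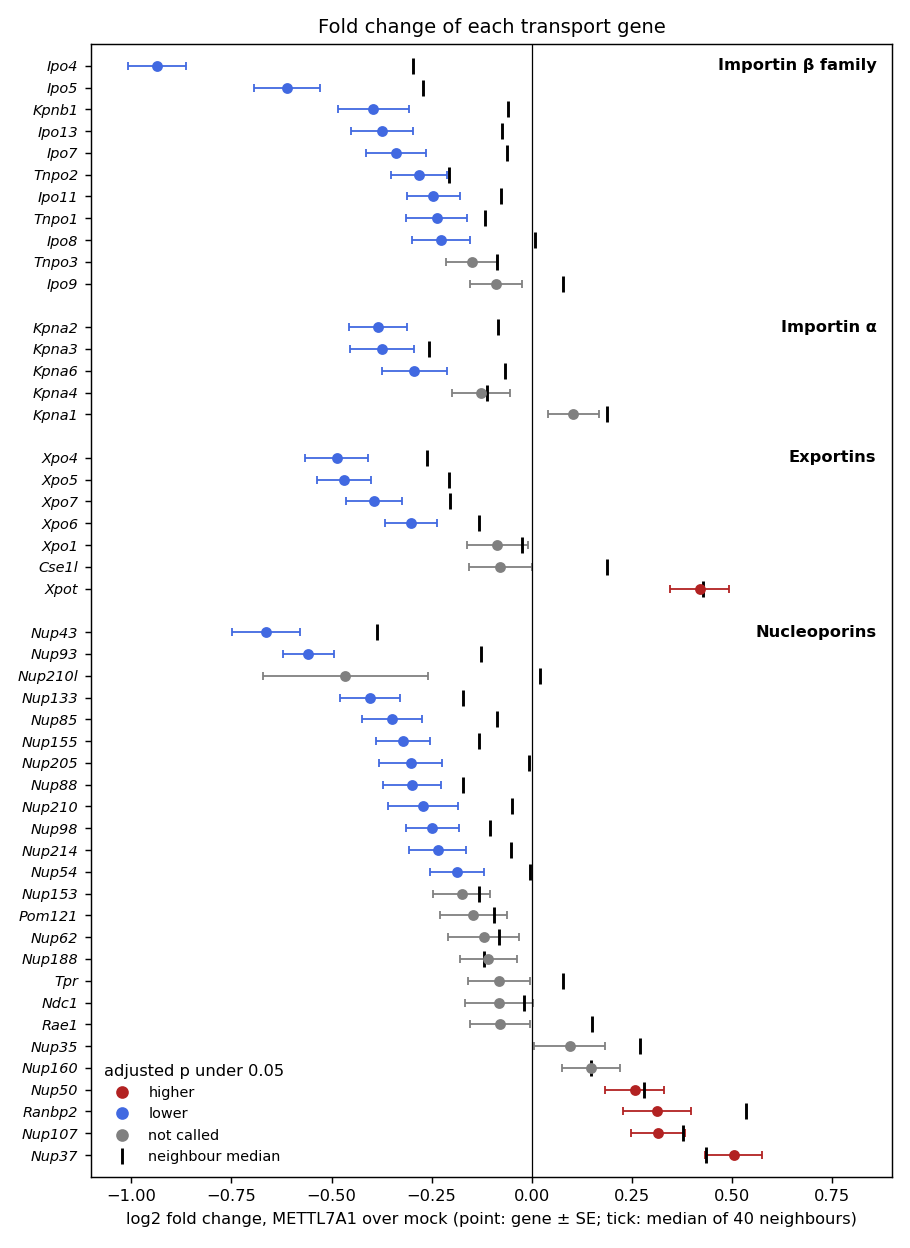
Log2 fold change of METTL7A1 over mock for the 48 tested members (points, horizontal bars are ± SE), grouped by class and coloured by the edgeR call, with a black tick at the median value of the 40 nearest abundant genes. All 11 genes of the importin beta family lie below 0, and the 5 red points (Xpot, Nup50, Ranbp2, Nup107 and Nup37) have ticks between 0.28 and 0.54.

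Transcripts of the importin beta family were lower in METTL7A1 cells with few exceptions. Of its 11 genes 9 were called lower and none higher (81.8% lower, beside 21.0% of all genes lower and 21.1% higher), with 10 lower and 0 higher at an unadjusted p under 0.05 (25.5% and 24.6% of all genes) and the same 9 and 0 counts by DESeq2 and limma voom. All 11 log2 fold changes were below 0, with a median of -0.28, and in all 11 genes the 3 METTL7A1 libraries lay below the 3 mock libraries, beside the 51.6% of all genes without overlap. With the median of the 40 nearest abundant genes on the chromosome subtracted, Tnpo1, Tnpo2 and Ipo11 lost their calls and the other 6 did not.

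Ipo4 (chromosome 14, 55625400 to 55635684), which carries histones and ribosomal proteins into the nucleus, changed most among all members. It had 145, 139 and 127 cpm in the mock libraries and 73.0, 70.5 and 71.2 cpm in the METTL7A1 libraries. The level in METTL7A1 cells was 47.7% lower (log2 fold change -0.94, SE 0.072, edgeR adjusted p = 3.25e-06), and the groups were far apart, with a SD of 1.26 cpm among the METTL7A1 libraries and 9.51 cpm among the mock libraries.

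Ipo5 (chromosome 14, 120911194 to 120948042), an importer of ribosomal proteins and histones and the METTL7A1 partner named above, had 394, 402 and 422 cpm in the METTL7A1 libraries against 633, 659 and 570.5 cpm in mock. All mock libraries lay above all METTL7A1 libraries, and the level was 34.5% lower in METTL7A1 cells (log2 fold change -0.61, SE 0.083, edgeR adjusted p = 0.000184). By level per length Ipo5 was the second most abundant member in mock cells.

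Kpnb1 (chromosome 11, 97159714 to 97187881), the importin beta that serves classical signals through the alpha adaptors, had the most counts per length of any member. It had 754, 752 and 803 cpm in METTL7A1 replicates 1, 2 and 3 and 1001, 1089.5 and 948 cpm in mock replicates 1, 2 and 3. Here too the groups did not overlap (log2 fold change -0.40, SE 0.089, edgeR adjusted p = 0.00447). Ipo7, which carries ribosomal proteins and, with Kpnb1, histone H1, fell by 0.34 on the log2 scale (SE 0.075, adjusted p = 0.00389 by edgeR). Ipo13, which works in both directions and returns the initiation factor eIF1A to the cytoplasm, fell by 0.38 (SE 0.077, edgeR adjusted p = 0.00268), and Ipo11, an importer of ubiquitin-conjugating enzymes, fell by 0.25 (SE 0.066, edgeR adjusted p = 0.0114).

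Transportins are the receptors of many RNA-binding proteins. Tnpo2 had 259, 243 and 246 cpm in the mock libraries and 213, 197 and 204 cpm in the METTL7A1 libraries (log2 fold change -0.28, SE 0.071, edgeR adjusted p = 0.00793). Tnpo1, which imports hnRNP A1, had 302, 315 and 325 cpm in the METTL7A1 libraries against 367, 392 and 351 cpm in mock (log2 fold change -0.24, SE 0.076, edgeR adjusted p = 0.0272). Neither gene's groups overlapped, but Tnpo2 was not called without METTL7A1 replicate 2 (adjusted p = 0.0535) and Tnpo1 was lost without METTL7A1 replicate 2 and without mock replicates 1 or 2 (adjusted p up to 0.0982). Ipo8, which imports Argonaute proteins, had 56.5, 54.7 and 62.8 cpm in METTL7A1 replicates 1, 2 and 3 and 67.0, 69.9 and 66.6 cpm in mock replicates 1, 2 and 3 (log2 fold change -0.23, SE 0.073, edgeR adjusted p = 0.0268). The METTL7A1 libraries were again the lower ones, and the call was lost in 4 of the 6 fits without 1 library, those without METTL7A1 replicates 1 or 2 or mock replicates 1 or 2 (adjusted p up to 0.145). Tnpo3, the importer of serine-arginine-rich splicing factors, and Ipo9, an importer of histones H2A and H2B, did not pass the test, with log2 fold changes of -0.15 (95% interval -0.29 to -0.01, adjusted p = 0.0754) and -0.09 (-0.23 to 0.05, adjusted p = 0.298).

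Among the importin alpha adaptors 3 of 5 tested genes were called lower and none higher (60.0% lower, beside 21.0% of all genes lower and 21.1% higher). DESeq2, limma voom and an unadjusted edgeR p under 0.05 gave the same counts (at that p 25.5% of all genes were lower and 24.6% higher). Kpna2 (chromosome 11, 106988629 to 106999541), the adaptor usually abundant in dividing cells, had 233, 248 and 219 cpm in the mock libraries and 176, 177 and 184 cpm in the METTL7A1 libraries. The groups were separate (log2 fold change -0.38, SE 0.073, edgeR adjusted p = 0.00165). Kpna3 on chromosome 14 fell by 0.37 on the log2 scale (SE 0.08, edgeR adjusted p = 0.00332). Kpna6 had 85.0, 87.9 and 102 cpm in the METTL7A1 libraries against 111, 118 and 106 cpm in mock, and its call (log2 fold change -0.29, SE 0.082, edgeR adjusted p = 0.0142) was lost without METTL7A1 replicate 2 and without mock replicates 1 or 2 (adjusted p up to 0.0762). Kpna4 (-0.13, 95% interval -0.29 to 0.03, edgeR adjusted p = 0.181) and Kpna1 (0.10, interval -0.04 to 0.24, edgeR adjusted p = 0.216) did not pass the test. Kpna3 and Kpna6 lost their calls with the neighbours' median subtracted, and Kpna2 did not.

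The adaptors did not move in step, so the make-up of their pool shifted. Per kb of exon, Kpna1 made up 11.8%, 11.9% and 11.5% of the summed importin alpha level in the METTL7A1 libraries and 9.0%, 8.74% and 9.07% in the mock libraries. Kpna2 made up 48.2%, 48.6% and 47.4% against 52.4%, 51.8% and 49.9%. The shares of both genes were separate between the groups, and Kpna2 remained the main adaptor in every library. Kpna4 was separate by a narrow gap (14.6% to 15.7% in METTL7A1 against 13.0% to 14.5% in mock), and the shares of Kpna3 and Kpna6 overlapped. The neighbours' median around Kpna1 was 0.19, and with it subtracted the log2 fold change of Kpna1 was -0.084.

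Exportins were mostly lower. Of the 7 tested genes 4 were called lower (57.1%) and 1 was called higher (14.3%), beside 21.0% and 21.1% of all genes. Xpo4, which exports the translation factor eIF5A, fell by 0.49 on the log2 scale (SE 0.079, edgeR adjusted p = 0.000555), and Xpo5, which carries microRNA precursors, fell by 0.47 (SE 0.068, edgeR adjusted p = 0.000276). Xpo7, a receptor of broad cargo, fell by 0.39 (SE 0.07, edgeR adjusted p = 0.00107), and Xpo6, the exporter of actin with profilin, fell by 0.30 (SE 0.066, edgeR adjusted p = 0.00366). These 4 calls held in all 6 fits that left out 1 library. With the neighbours' median subtracted, Xpo4 and Xpo5 were still called, and Xpo6 (-0.17, adjusted p = 0.0708) and Xpo7 (-0.19, adjusted p = 0.061) were not.

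Xpot, the exporter of tRNA (chromosome 10, 121587380 to 121626316), was the 1 exportin that rose (log2 fold change 0.42, SE 0.074, edgeR adjusted p = 0.00101). Its level was 214 ± 8.29 cpm in METTL7A1 cells and 160.0 ± 9.82 cpm in mock cells (SD, n = 3 each), and all METTL7A1 libraries were above all mock libraries. Per kb of exon, Xpot stood at 0.914, 1.03 and 1.01 times the level of Xpo5 in the METTL7A1 libraries and at 0.520, 0.549 and 0.522 times in the mock libraries. The call of Xpot was lost once the median of its neighbours on the chromosome was subtracted.

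Xpo1 (chromosome 11, 23256041 to 23298249), the exporter of leucine-rich signals and the most abundant exportin, had 539.5, 521 and 521 cpm in METTL7A1 replicates 1, 2 and 3 and 545, 585 and 549 cpm in mock replicates 1, 2 and 3. The libraries of the groups did not overlap, but the gap was small beside the spread, and Xpo1 did not pass the test (log2 fold change -0.09, 95% interval -0.25 to 0.08, edgeR adjusted p = 0.395). Cse1l, which returns importin alpha to the cytoplasm, gave a similar value (-0.08, interval -0.25 to 0.09, edgeR adjusted p = 0.45).

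**Figure D2:**
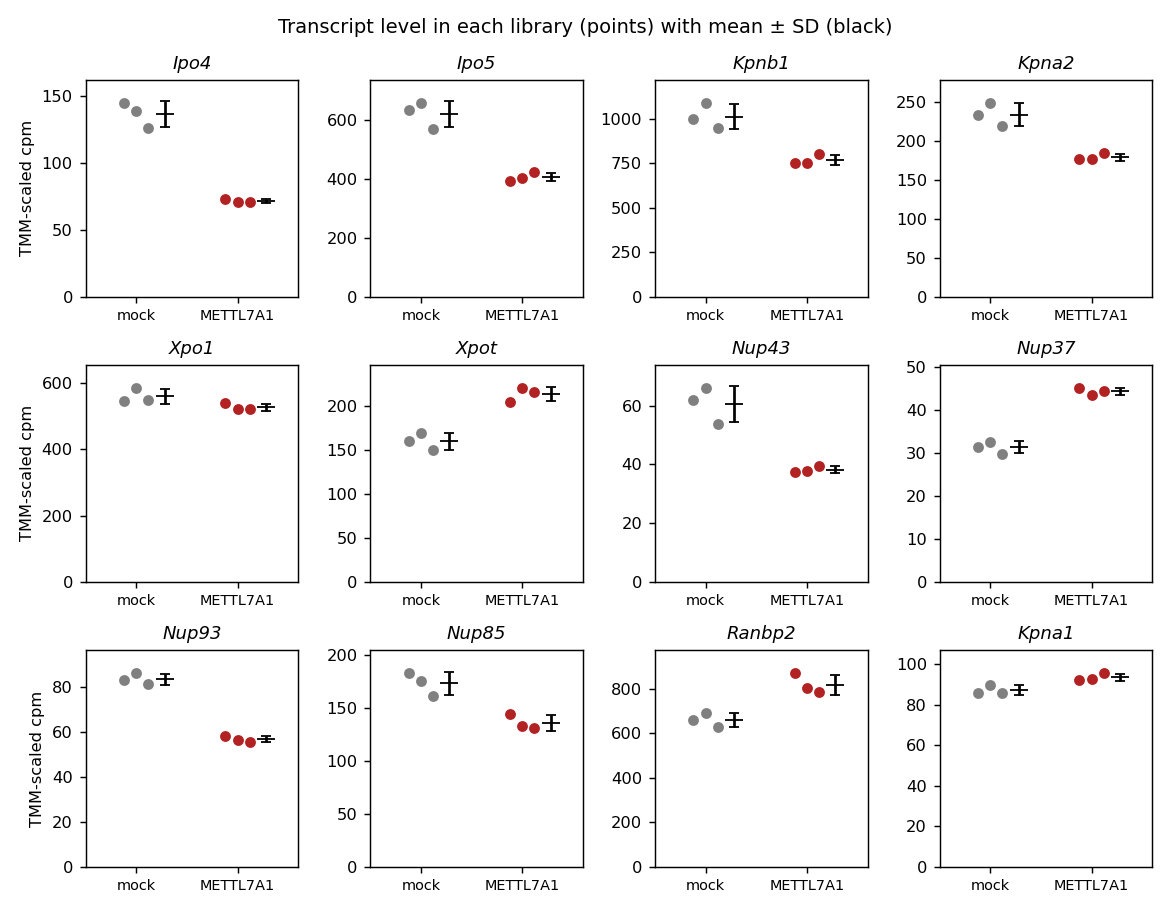
TMM-scaled cpm of 12 members in each library (grey, mock; red, METTL7A1), with the mean ± SD of 3 libraries in black and every vertical axis starting at 0. Ipo4 drops from a mean of 137 to 71.6 cpm with no overlap, whereas Xpo1 stays between 521 and 585 cpm in all 6 libraries.

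Nucleoporins were the most mixed class, with 11 of 25 tested genes lower, 4 higher and 10 not called, and a median log2 fold change of -0.17. That is 44.0% lower and 16.0% higher, beside 21.0% and 21.1% of all genes. Both directions were found in the outer ring, whose Y complex is a scaffold of fixed composition. The members hold 6 of its subunits but not all of them, and Sec13, outside the members, is given further below. Of these 6, 3 were called lower (50.0%) and 2 were called higher (33.3%). Nup160 was not called (log2 fold change 0.15, 95% interval -0.01 to 0.31, edgeR adjusted p = 0.125).

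Nup43 (chromosome 10, 7667503 to 7678881) had 61.9, 66.0 and 53.8 cpm in the mock libraries and 37.4, 37.8 and 39.5 cpm in the METTL7A1 libraries. Nup37 (chromosome 10, 88146992 to 88178388) had 45.0, 43.3 and 44.4 cpm in the METTL7A1 libraries against 31.3, 32.6 and 29.8 cpm in mock. The 2 genes, which encode small subunits of the same complex and lie on the same chromosome, went in opposite directions without overlap between the groups, Nup43 with log2 fold change -0.66, SE 0.084, edgeR adjusted p = 0.000112 and Nup37 with log2 fold change 0.50, SE 0.071, edgeR adjusted p = 0.000229. The call of Nup37 was lost, and that of Nup43 was not, once the median of each gene's neighbours on the chromosome was subtracted. Per kb of exon, the level of Nup37 was 1.14, 1.08 and 1.06 times that of Nup43 in the METTL7A1 libraries and 0.477, 0.466 and 0.523 times in the mock libraries.

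Nup85 (chromosome 11, 115564434 to 115583985), the most abundant nucleoporin per length in mock cells, had 144, 133 and 130.5 cpm in METTL7A1 replicates 1, 2 and 3 and 183, 175 and 161 cpm in mock replicates 1, 2 and 3. The lowest mock library was above the highest METTL7A1 library (log2 fold change -0.35, SE 0.076, edgeR adjusted p = 0.00355). Nup133, another large subunit of the Y complex, fell by 0.40 on the log2 scale (SE 0.074, edgeR adjusted p = 0.00127), and Nup107, to which Nup133 binds, rose by 0.31 (SE 0.066, edgeR adjusted p = 0.00301). With the neighbours' median subtracted, Nup107 stood at -0.061 and lost its call (adjusted p = 0.524), and Nup85 and Nup133 kept theirs. The ratio of Nup107 to Nup133 per kb of exon was 2.96 ± 0.0337 in METTL7A1 cells and 1.80 ± 0.0995 in mock cells (SD, n = 3 each). Summed over the 6 subunits among the members, the level per kb of exon differed by -8.05% in METTL7A1 cells. The sums were 204 to 216 in the METTL7A1 libraries and 213 to 233 in mock. They overlapped although no single subunit's groups did.

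**Figure D3:**
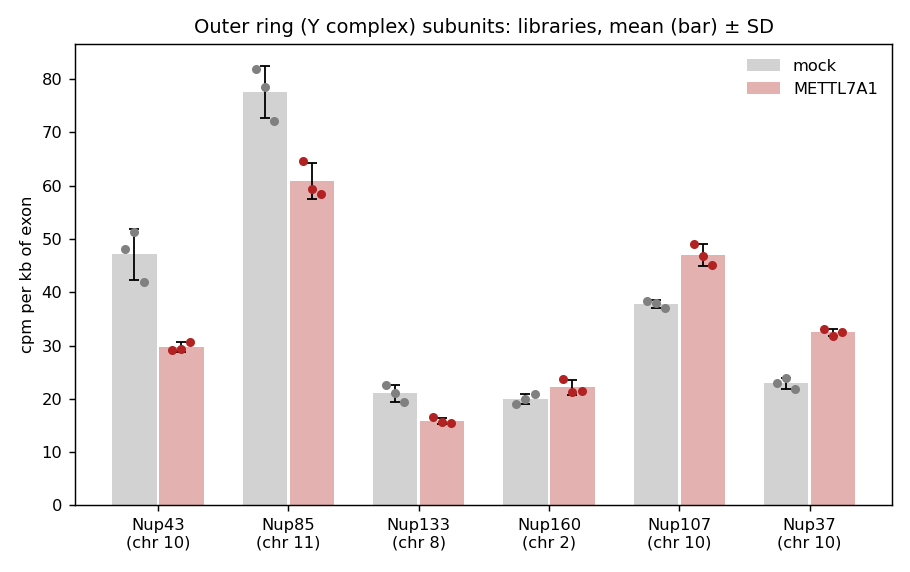
Level per kb of exon of the 6 outer ring (Y complex) subunits among the members, as library points with bars at the mean and error bars of ± SD (grey, mock; red, METTL7A1), and with the chromosome under each name. Nup43 lies above Nup37 in every mock library and below it in every METTL7A1 library.

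In the inner ring, which anchors the channel to the scaffold, 3 of 5 genes were called lower (60.0%, beside 21.0% of all genes). Nup93 (chromosome 8, 94214564 to 94317227), which holds the channel proteins in place, had 83.0, 86.0 and 81.2 cpm in the mock libraries and 58.1, 56.3 and 55.6 cpm in the METTL7A1 libraries. The libraries were tightly grouped and far apart (log2 fold change -0.56, SE 0.064, edgeR adjusted p = 5.93e-05). Nup155, which contacts the membrane, fell by 0.32 on the log2 scale (SE 0.068, edgeR adjusted p = 0.003). Nup205 had 303, 288 and 286 cpm in the METTL7A1 libraries against 376, 376 and 330.3 cpm in mock (log2 fold change -0.30, SE 0.08, edgeR adjusted p = 0.0102), and its call was lost without mock replicate 1 (adjusted p = 0.0531). Its paralog Nup188 (-0.11, 95% interval -0.26 to 0.05, edgeR adjusted p = 0.246) and Nup35 (0.09, interval -0.10 to 0.29, edgeR adjusted p = 0.421) did not pass the test. Of the exon bases of Nup188, 284 overlap Gm28038, which had 0 counts.

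Around the channel and on the membrane, changes were small. Nup54, a channel protein with phenylalanine-glycine repeats, had 60.1, 65.0 and 58.8 cpm in METTL7A1 replicates 1, 2 and 3 and 69.6, 70.4 and 69.2 cpm in mock replicates 1, 2 and 3. Its groups were separate, but the call (log2 fold change -0.19, SE 0.067, edgeR adjusted p = 0.0446) was the weakest of all members and was lost whichever of the 6 libraries was left out (adjusted p up to 0.164). Its partner Nup62 did not pass the test (-0.12, 95% interval -0.31 to 0.07, edgeR adjusted p = 0.3), with the reservation that 88 of its exon bases overlap Il4i1, a gene with at most 47 counts.

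Nup210, a membrane glycoprotein of the pore, had 149, 136 and 125 cpm in the mock libraries and 124, 113 and 103 cpm in the METTL7A1 libraries. Its METTL7A1 libraries lay below the mock libraries (log2 fold change -0.27, SE 0.088, edgeR adjusted p = 0.0283), and the call was lost without METTL7A1 replicates 2 or 3 or mock replicates 1 or 2 (adjusted p up to 0.151). The membrane anchors Ndc1 (-0.08, 95% interval -0.27 to 0.11) and Pom121 (-0.15, interval -0.33 to 0.04) did not pass the test, with edgeR adjusted p values of 0.477 and 0.183. Pom121 had 74.3, 76.3 and 89.6 cpm in the METTL7A1 libraries against 85.0, 87.1 and 93.7 cpm in mock, in which the groups overlapped, and it was called without METTL7A1 replicate 3, its highest METTL7A1 library.

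On the cytoplasmic face, 3 of 5 tested genes were called lower (60.0%) and 1 was called higher, beside 21.0% and 21.1% of all genes. Nup88, which holds Nup214 and Nup98, fell by 0.30 on the log2 scale (SE 0.072, edgeR adjusted p = 0.00643). Nup98, which binds Rae1 in mRNA export, had 155, 149 and 155 cpm in METTL7A1 replicates 1, 2 and 3 and 177, 186 and 182 cpm in mock replicates 1, 2 and 3 (log2 fold change -0.25, SE 0.066, edgeR adjusted p = 0.0107), and was not called without METTL7A1 replicate 2 (adjusted p = 0.0663). Nup214 had 95.3, 90.3 and 100.3 cpm in the mock libraries and 85.5, 77.9 and 79.6 cpm in the METTL7A1 libraries (log2 fold change -0.24, SE 0.071, edgeR adjusted p = 0.0199), and its call was lost without METTL7A1 replicates 2 or 3 or mock replicate 1 (adjusted p up to 0.113).

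Ranbp2 (chromosome 10, 58446852 to 58494155), the giant protein of the cytoplasmic filaments and a SUMO ligase, had 869, 801 and 785 cpm in the METTL7A1 libraries against 658, 691 and 629.6 cpm in mock. All METTL7A1 libraries were above all mock libraries (log2 fold change 0.31, SE 0.085, edgeR adjusted p = 0.0123), and Ranbp2 was the most abundant nucleoporin per length in METTL7A1 cells. With the median of its neighbours subtracted the value turned to -0.22 and the call was lost. The sum over the cytoplasmic face was within 0.478% between the groups. Rae1, the mRNA export factor bound by Nup98, did not pass the test (-0.08, 95% interval -0.24 to 0.09, edgeR adjusted p = 0.428).

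Of the nuclear basket, Nup50, a cofactor that helps release importin alpha cargo, had 78.2, 81.7 and 84.4 cpm in METTL7A1 replicates 1, 2 and 3 and 70.5, 71.6 and 62.7 cpm in mock replicates 1, 2 and 3. It was higher in all METTL7A1 libraries (log2 fold change 0.26, SE 0.073, edgeR adjusted p = 0.0158), but lost its call without METTL7A1 replicates 2 or 3 (adjusted p up to 0.058) and with the neighbours' median subtracted (-0.023, adjusted p = 0.841). Nup153, the basket's anchor, had 196, 197 and 185 cpm in the mock libraries and 181, 167 and 164 cpm in the METTL7A1 libraries, and missed the threshold (-0.17, 95% interval -0.33 to -0.02, edgeR adjusted p = 0.0703) although its groups were separate. It was called without METTL7A1 replicate 1, without mock replicate 3 and by DESeq2. Tpr, the filament protein of the basket, gave -0.08 (interval -0.25 to 0.09, edgeR adjusted p = 0.429).

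Ordered by level per kb of exon in mock cells, Kpnb1 came first (172 ± 12.1) and Ipo5 followed (135 ± 9.88), ahead of Kpna2 (99.5 ± 6.26), Xpo1 (92.7 ± 3.64) and Ipo7 (89.0 ± 4.69; SD, n = 3 each). Kpnb1 and Ipo5 were separate from each other and from the next gene by more than their SDs, and Kpna2, Xpo1 and Ipo7 overlapped as neighbours. Further down, the order is loose, because 35 of 47 neighbouring pairs overlapped in mean ± SD in mock cells and 33 of 47 in METTL7A1 cells. In METTL7A1 cells Kpnb1 (131 ± 4.91) still came first, whereas Ipo5 (88.5 ± 3.13), Xpo1 (87.3 ± 1.74) and Ranbp2 (86.3 ± 4.72) no longer differed beyond their spread. Ipo4 moved from place 19 to 31, and Nup37 from place 30 to 19. Among the tested members, Xpo7 was the lowest other than Nup210l in both groups (8.70 ± 0.48 in mock and 6.62 ± 0.266 in METTL7A1). Exon length here is the union of all annotated exons, which understates levels of genes with many long unused exons.

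Summed by class, the importin beta family stood at 630.1, 657 and 594 cpm per kb in the mock libraries and at 473, 469.5 and 487 in the METTL7A1 libraries, a difference of -24.0%. Importin alpha genes differed by -18.0%, exportins by -9.27% and nucleoporins by -7.75%. In all 4 classes the METTL7A1 libraries lay below the mock libraries. Within the importin beta family, the share of Ipo5 went from 21.5% to 18.6% and that of Ipo4 from 5.68% to 3.91%, while Kpnb1 held 27.4% in both groups.

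**Figure D4:**
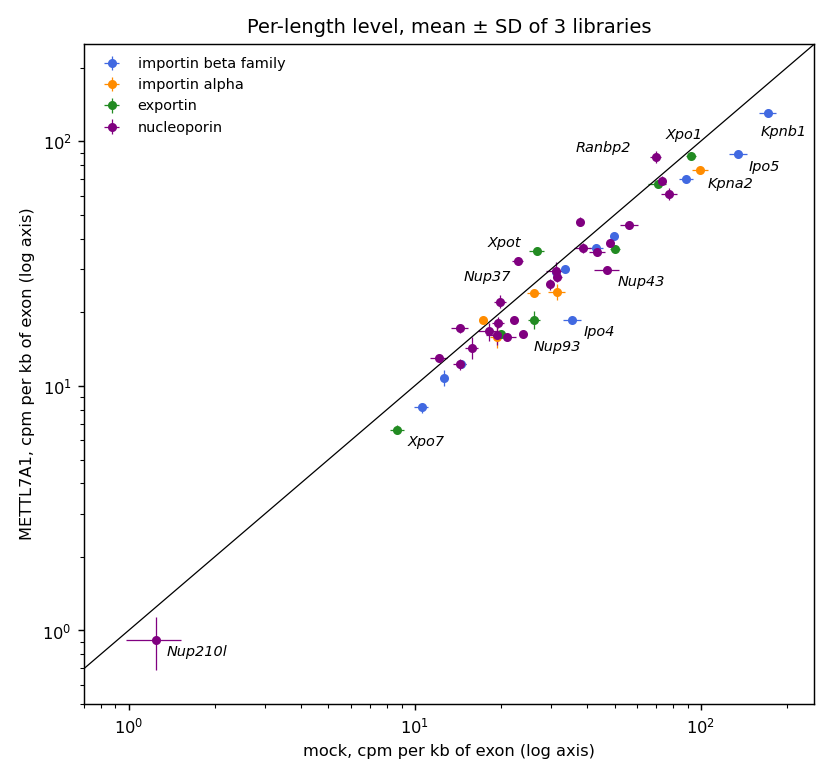
Mean level per kb of exon in METTL7A1 against mock cells for the 48 tested members (both axes logarithmic, bars are ± SD of 3 libraries, the line marks equality), coloured by class. Importin beta genes all lie below the line, and Ranbp2, Xpot and Nup37 lie above it.

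The tested members lie on 15 chromosomes. All 5 members on chromosome 14 (Ipo4, Ipo5, Xpo4, Xpo7 and Kpna3) were called lower, beside 21.0% of all genes over all chromosomes. The median log2 fold change of 351 abundant genes of chromosome 14 was -0.28, and the share of its genes called lower was not computed. On chromosome 10, Ranbp2, Nup37, Nup107 and Xpot were higher and Nup43, near the start of the chromosome, was lower. The 40 nearest abundant genes had median log2 fold changes of 0.54 around Ranbp2, 0.44 around Nup37, 0.38 around Nup107 and 0.43 around Xpot, and of -0.39 around Nup43. With members on chromosome 10 left out, 26 of 43 were lower (60.5%) and 1 was higher (2.33%). With those on chromosome 14 left out as well, 21 of 38 were lower (55.3%) and 1 was higher (2.63%). Over all chromosomes, 21.0% of all genes were lower and 21.1% higher.

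The neighbours' median had the same sign as the member in 31 of the 32 called members, the exception being Ipo8, whose neighbours stood at 0.01. Every one of the 27 genes called lower lay below its neighbours' median, whereas only Nup37 of the 5 called higher lay above it. A gene is called lower on its own low value, which by itself favours a place below the neighbours. The matching shares of all called genes, for sign and for side, were not computed, so these counts are not set apart from other genes. With the neighbours' median subtracted in the edgeR fit, 16 of 48 members were called, all lower, beside 31.5% of all genes called and 13.4% lower. In that fit 0 members were higher at an adjusted or an unadjusted p under 0.05, beside 18.1% and 22.7% of all genes. The median of the members was then -0.18. Of the 32 calls 14 remained, those of Ipo4, Ipo5, Ipo7, Ipo8, Ipo13, Kpnb1, Kpna2, Xpo4, Xpo5, Nup43, Nup85, Nup93, Nup133 and Nup205, and Cse1l (-0.27, adjusted p = 0.0229) and Rae1 (-0.23, adjusted p = 0.0367) were called in addition. Besides the 5 higher genes, 13 genes lost a call of lower, which were Tnpo1, Tnpo2, Ipo11, Kpna3, Kpna6, Xpo6, Xpo7, Nup54, Nup88, Nup98, Nup155, Nup210 and Nup214. Among the called members Ipo4 was still the largest change (-0.64, adjusted p = 5.88e-05), ahead of Nup93 (-0.43, adjusted p = 0.000473), Ipo5 (-0.34, adjusted p = 0.00959) and Kpnb1 (-0.34, adjusted p = 0.0147), while Nup43 was at -0.28 (adjusted p = 0.0268), Nup37 at 0.07 (adjusted p = 0.508) and Xpot at -0.01 (adjusted p = 0.945). Why neighbouring genes moved together was not tested.

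**Figure D5:**
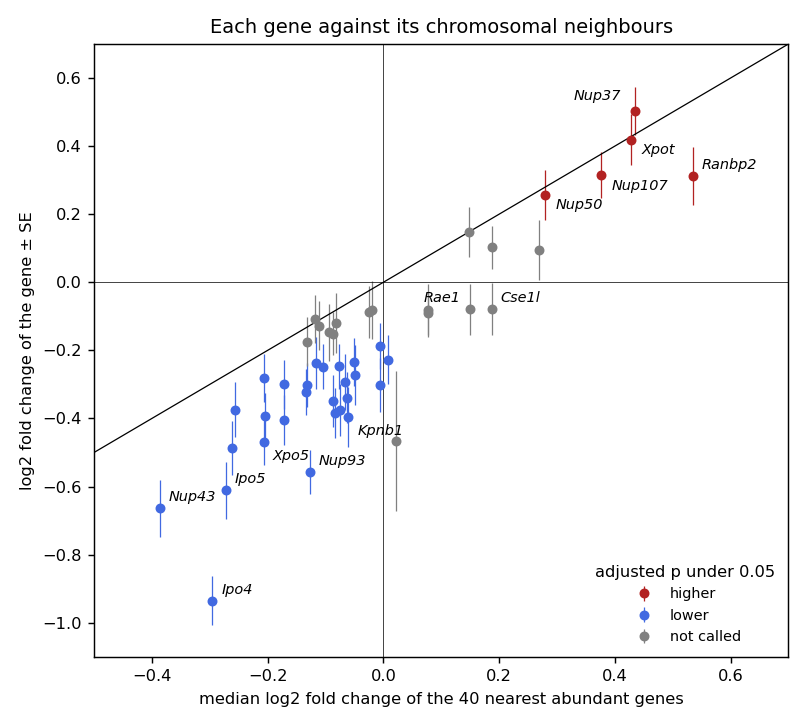
Log2 fold change of each tested member (± SE) against the median value of its 40 nearest abundant genes, coloured by the edgeR call, with a line at equality. The blue points all lie under the line, from Ipo4 at -0.94 with neighbours at -0.30 to Ipo8 at -0.23 with neighbours at 0.01, and the red points cluster at neighbour medians of 0.28 to 0.54.

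Other genes of the pathway, listed by function, did not move as one. In the list of the Ran cycle 12 of 14 genes were tested, with a list median of -0.11. Of the tested genes 4 were called (33.3%, beside 42.1% of all genes), all of them lower (beside 21.0% of all genes lower and 21.1% higher). These were Rcc1, the exchange factor that charges Ran with GTP (-0.32, edgeR adjusted p = 0.00363), Nutf2, which returns Ran to the nucleus (-0.33, edgeR adjusted p = 0.00909), Ranbp3, a cofactor of Xpo1 (-0.32, edgeR adjusted p = 0.00423), and Ran itself (-0.29, edgeR adjusted p = 0.0329), which falls short of the 0.3 set for naming and was added after its value was seen. With the neighbours' median subtracted, Rcc1 and Ranbp3 kept their calls and Nutf2 and Ran did not (adjusted p = 0.231 and 0.127). Ranbp3l and Rangrf were below the filter.

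Among 11 tested genes of the pore or linked to it, with symbols outside the members, 5 were higher and 2 lower (63.6% called, beside 42.1% of all genes, list median 0.06). Of the 5 higher genes only Aaas encodes a nucleoporin, and the others were Nemp1, Tmem33 (0.25), Senp1 (0.27) and Senp2 (0.27). Tmem33, Senp1 and Senp2 fall short of the 0.3 set for naming and are named to show what the list holds. With the neighbours' median subtracted, Tmem33 kept its call and Senp1 and Senp2 did not. Nupl1, the gene of the channel protein Nup58 on chromosome 14, and Sec13, a subunit of the Y complex, fell by 0.48 and 0.42 on the log2 scale (edgeR adjusted p = 0.000238 and 0.00196). Nemp1, an inner nuclear membrane protein on chromosome 10, rose by 1.17 (edgeR adjusted p = 5.86e-07), from 41.7 ± 2.23 to 93.7 ± 2.71 cpm (SD, n = 3 each), and Aaas, which encodes the nucleoporin aladin, rose by 0.32 (edgeR adjusted p = 0.00529). The neighbours' medians were 0.53 around Nemp1, 0.31 around Aaas and -0.28 around Nupl1, but -0.01 around Sec13. With these subtracted, Nemp1, Nupl1 and Sec13 were still called and Aaas was not (0.016, adjusted p = 0.892).

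Of 21 tested genes for the export of mRNA, which uses receptors other than exportins, 7 were lower and 4 higher (52.4% called, list median -0.06). Thoc3 (-0.61, edgeR adjusted p = 0.000253) and Thoc7 (-0.41, edgeR adjusted p = 0.00172), subunits of the THO complex, Ddx39 (-0.48, edgeR adjusted p = 0.000884), an export helicase, and the adaptor Alyref (-0.34, edgeR adjusted p = 0.00261) fell. Sarnp (0.50, edgeR adjusted p = 0.000164) and Nxt2 (0.43, edgeR adjusted p = 0.0296), a partner of the export receptor, rose. With the neighbours' median subtracted, Nxt2 and Ddx39 were still called, whereas Thoc3 (-0.11, adjusted p = 0.394), Thoc7 (-0.11, adjusted p = 0.335), Alyref (-0.15, adjusted p = 0.14) and Sarnp (0.09, adjusted p = 0.326) were not. Over the 3 lists together 22 of 44 tested genes were called (50.0%, beside 42.1% of all genes), and 10 when the neighbours' median was subtracted (22.7%, beside 31.5%).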

How the data were processed

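Total RNA of 6 libraries was measured, 3 per group, with groups and replicate numbers taken from the sample titles. Per the labels and methods, the authors trimmed reads with BBDuk, aligned pairs to mm10 with STAR 2.5.3a and assigned them to Ensembl genes with featureCounts. The deposited values are raw counts per gene without normalization, and the settings for strand and for reads that map to several places are not given in the sources used here, so reads of near-identical copies such as Kpna2 and Kpna2-ps could have been split or lost. The deposited table also gives each gene's exons and exon length, an annotation value and not a measurement. No column of counts belonged to another series, and no 2 libraries were identical.

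Genes with at least 1 cpm in at least 3 libraries were kept (13166), as in the study. METTL7A1 was compared with mock in R 4.3.3 by edgeR 4.0.16 (TMM, glmQLFit and glmQLFTest, no covariate), and p values were adjusted by the Benjamini-Hochberg method over all genes tested. The study does not name its tool or the base of its fold change, which was taken as log2. The SE is the log2 fold change divided by the root of the F statistic, and 95% intervals use the t distribution with the total degrees of freedom of the fit. Levels between genes are compared only as TMM-scaled cpm per kb of exon length. The intervals thus include the spread between libraries, and the floor of 3 counts covers counting error only. Neighbours are the 40 nearest genes on the chromosome with an average log2 cpm over 2, the gene itself left out. Positions are as the table lists them (mm10, starting at 1), and motifs were searched in RefSeq windows, 37 of 40 within 100 bases of the table's gene start. Members, gene lists and tests were chosen with earlier results of these data known. Values of every library are given for Ipo5, for called members with an absolute log2 fold change of at least 0.5, for the most abundant member of each class and for members whose call changed without 1 library. Pathway genes outside the members are named when called with an absolute log2 fold change of at least 0.3. Ran, Tmem33, Senp1 and Senp2 are named in addition. Nup58 and Nup42 are listed in the table as Nupl1 and Nupl2 and fell outside the members. Alternatives were RLE and upper quartile scaling, other filters, the replicate number as a block, leaving out the 20 most abundant genes, DESeq2 1.42.0, limma 3.58.1 voom, a neighbour offset and omission of each library. The edgeR test was tested on simulated data of METTL7A1 against mock with 13166 genes, where it recovered 96 of 100 genes changed by a log2 fold of 2 and 87 of 100 changed by 0.6, and 12 of its 195 calls were not truly changed genes. The simulation used a common spread for all genes and changed 200 of them, whereas 42.1% of the real genes were called. An absolute log2 fold change under 0.5, smaller than either simulated size, was seen in 43 of 48 members. These rates were therefore not measured for changes of that size.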

Additional observations from a re-analysis of the deposited data

How the results depend on the processing

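The counts of members called, in either direction, of members past the thresholds of the study and of pathway genes called stayed within 1.5 times their values, and the median log2 fold change within 1 SD of its value, under RLE and upper quartile scaling, other filters, removal of the 20 most abundant genes, the replicate block, DESeq2 and limma voom. The exception was the neighbour offset (all genes: 31.5% called, 18.1% higher and 13.4% lower), with 16 members called, 0 higher and 16 lower, 10 pathway genes called and a median of -0.18. It also turned the direction of Ranbp2 (-0.22), Nup107 (-0.061), Xpot (-0.0086), Nup50 (-0.023), Nup188 (0.010), Nup35 (-0.17) and Kpna1 (-0.084), since it subtracts the median of each gene's neighbours. Without 1 library, 23 to 32 members were called, 4 to 5 higher and 19 to 27 lower, and 17 to 22 pathway genes, with medians of -0.24 to -0.22, beside 29.1% (without METTL7A1 replicate 2) to 44.5% (without mock replicate 3) of all genes called. Of the 32 called members 22 were called in all 6 of those fits. Without the abundance filter 27 members were called, 5 higher and 22 lower, beside 20.9% of 28601 genes (11.6% higher and 9.31% lower).

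Deviations from the group mean of libraries with the same replicate number correlated at -0.15, 0.20 and -0.37, in no single direction. Correlations between different replicate numbers were not computed, so these values cannot settle whether the numbers pair the libraries. With the replicate block 29 members were called, 5 higher and 24 lower (Nup54, Ipo8 and Tnpo1 were not), the median was -0.24, 19 pathway genes and 4810 of all genes were called, and 0 members passed the study thresholds. With 3 libraries a group and members at 107 to 26402 counts per library, changes of the size seen in Nup54 or Ipo8 are at the limit of what was detected.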
